A study of Mus musculus with 48 samples.

Results

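In mouse liver at embryonic day 15.5 (E15.5), 10419 regions were bound by C/EBPα and 35764 by HNF4α, and 5732 of the C/EBPα regions (55.0%) overlapped 5668 of the HNF4α regions (15.8%). A region of a factor was built from the peaks of its 2 replicates, merged by any overlap and kept where it held a peak of each. The regions fall into 3 classes: shared by both factors, C/EBPα alone (4687 regions) and HNF4α alone (30096 regions). These 46183 regions were taken from 384520 regions of both factors at 5 stages. Genes were assigned to a class where their transcription start lay within 5 kb of a region.

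The data were ChIP-seq (chromatin immunoprecipitation followed by sequencing) peak lists from liver of wild-type F1 mice (C57Bl6/CBA), 2 biological replicates for each factor at E15.5, E18.5 and postnatal days 0.5, 14 and 60 (P0.5, P14, P60), and 8 RNA sequencing libraries of liver. The C/EBPα antibody was from Santa Cruz Biotech. The HNF4α antibodies were from Santa Cruz Biotech and Aviva, and which one was used in which sample is not given in the labels. RNA came from 3 wild-type livers, 3 livers of C/EBPa lox/lox / Alfp-Cre mice (C/EBPα knockout) and 2 livers of HNF4a lox/lox / Alfp-Cre mice (HNF4α knockout), all of the same F1 strain. The Alfp-Cre transgene acts in cells of the hepatic lineage and deletes the floxed gene there, so blood and other cells of the liver keep it. The sample labels give an age of 60 days postnatal for the RNA, while the series text gives E18.5. Afp, a gene of fetal liver, had values of 625821, 499143 and 706964 in the wild-type libraries.

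C/EBPα is a leucine zipper protein that binds DNA as a dimer and drives genes of mature hepatocytes, of fat cells and of granulocytes. HNF4α is a nuclear receptor that binds DNA as a homodimer and is needed for the hepatocyte programme of lipid, bile acid, drug and clotting factor genes. Both are present in the liver bud well before birth, when the organ still makes blood, and each is known to bind near many genes of the other's programme.

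The 2 C/EBPα lists at E15.5 held 16900 and 13434 peaks (median widths 329 and 317 bp), and the 2 HNF4α lists held 50864 and 39433 (435 and 452 bp). Of the C/EBPα peaks, 62.2% of replicate 1 and 78.3% of replicate 2 met a peak of the other replicate. For HNF4α these shares were 71.2% and 91.8%. The peaks carry no height or significance, so binding here means a listed peak, and no peak means only that none was listed. Among the later lists, the HNF4α lists at E18.5 stand apart: only 35.6% and 46.0% of their peaks were found in the other replicate, and 12.4% and 12.7% of peaks lay within 5 kb of a start against 24.2% to 34.5% in all the other lists. At P0.5 both HNF4α lists held the same peaks, and they count as 1 library. Liver from E15.5 holds hepatoblasts and blood cells, and a bound region cannot be assigned to a cell type in these data.

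Promoter sequences from RefSeq (assembly GRCm38.p6) show what the start sites of the 3 classes look like. The 250 bases before the start are printed 5′ to 3′ along the gene in lower case, with matches to a C/EBP motif (TTGCNNAA) or an HNF4 motif (CAAAGNNCA) on either strand in capitals. Regions are in build mm9, so the window and the region are in different builds, and a start was taken as bound where the mm9 start in the deposited gene table lay inside a region. Saa4 (shared) and Cyp3a25 (HNF4α alone) were taken by rule, and the gene that the rule gave for C/EBPα alone, 4930467E23Rik, held neither motif and is not shown. Alb, Fga, Ugt2b5, Ltf and Cyp8b1 were chosen after their values were seen, to show each class at well-known or strongly changed genes. The windows are Saa4 at chr7:46732604-46732853 on the minus strand, Alb at chr5:90460620-90460869 on the plus strand, Fga at chr3:83025903-83026152 on the plus strand, Ugt2b5 at chr5:87140341-87140590 on the minus strand, Ltf at chr9:111019042-111019291 on the plus strand, Cyp3a25 at chr5:146009619-146009868 on the minus strand and Cyp8b1 at chr9:121916306-121916555 on the minus strand. Cyp3a25 has 2 RefSeq starts, and the first listed is shown.
Saa4 (shared): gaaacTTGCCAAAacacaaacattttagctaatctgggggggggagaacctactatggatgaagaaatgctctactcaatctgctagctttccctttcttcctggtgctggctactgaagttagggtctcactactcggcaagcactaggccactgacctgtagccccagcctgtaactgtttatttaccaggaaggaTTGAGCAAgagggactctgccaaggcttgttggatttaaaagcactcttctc
Alb (shared): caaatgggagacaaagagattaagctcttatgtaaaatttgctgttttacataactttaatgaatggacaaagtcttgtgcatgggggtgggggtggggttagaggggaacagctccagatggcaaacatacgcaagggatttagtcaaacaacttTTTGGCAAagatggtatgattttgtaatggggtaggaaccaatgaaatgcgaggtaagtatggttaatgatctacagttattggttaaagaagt
Fga (shared): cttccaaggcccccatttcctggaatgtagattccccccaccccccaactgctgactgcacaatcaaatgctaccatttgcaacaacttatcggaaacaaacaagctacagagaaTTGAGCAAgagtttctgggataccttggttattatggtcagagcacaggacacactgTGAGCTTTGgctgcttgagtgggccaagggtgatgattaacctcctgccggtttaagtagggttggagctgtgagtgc
Ugt2b5 (C/EBPα alone): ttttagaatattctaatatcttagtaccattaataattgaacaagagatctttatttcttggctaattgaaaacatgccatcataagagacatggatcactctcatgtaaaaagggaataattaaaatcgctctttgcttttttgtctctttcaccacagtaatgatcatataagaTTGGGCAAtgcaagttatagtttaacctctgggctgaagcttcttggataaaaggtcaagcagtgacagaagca
Ltf (C/EBPα alone): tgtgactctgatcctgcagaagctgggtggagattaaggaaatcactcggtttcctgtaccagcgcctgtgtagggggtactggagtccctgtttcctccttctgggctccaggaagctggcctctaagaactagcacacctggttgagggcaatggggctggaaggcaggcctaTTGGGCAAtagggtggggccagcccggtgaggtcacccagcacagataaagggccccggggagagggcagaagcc
Cyp3a25 (HNF4α alone): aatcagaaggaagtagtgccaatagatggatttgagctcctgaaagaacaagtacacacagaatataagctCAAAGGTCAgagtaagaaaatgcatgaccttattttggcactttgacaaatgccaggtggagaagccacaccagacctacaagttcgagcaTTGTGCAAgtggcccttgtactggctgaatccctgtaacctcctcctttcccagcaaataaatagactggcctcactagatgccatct
Cyp8b1 (HNF4α alone): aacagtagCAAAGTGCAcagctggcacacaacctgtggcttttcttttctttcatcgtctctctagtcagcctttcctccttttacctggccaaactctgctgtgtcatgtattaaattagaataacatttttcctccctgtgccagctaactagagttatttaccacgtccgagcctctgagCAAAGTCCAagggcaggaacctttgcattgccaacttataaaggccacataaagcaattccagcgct
The C/EBP match begins 52 bases before the start in Saa4, with another 245 bases before it, 94 bases before it in Alb, 74 in Ugt2b5 and 75 in Ltf. Fga holds a C/EBP match at 135 and an HNF4 match at 78 bases before the start. Cyp8b1 holds HNF4 matches at 242 and 67 bases and no C/EBP match, while Cyp3a25 holds an HNF4 match at 179 and a C/EBP match at 88 bases, in a window with no E15.5 region of C/EBPα. The mm9 regions over these starts are chr7:53987810-53988151 (Saa4, C/EBPα, shared), chr5:90889586-90890005 (Alb, C/EBPα, shared), chr3:82829721-82830133 (Fga, C/EBPα, shared), chr5:87569271-87569663 (Ugt2b5), chr9:110921612-110921899 (Ltf), chr5:146821172-146821658 (Cyp3a25) and chr9:121825160-121825927 (Cyp8b1).

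The promoters in the table were of 300 bases, 250 before the start and 50 after it. Across all of them (16349 of 37583 genes matched by name), the C/EBP motif was found in 31.4% of the 220 with a shared region over the start and in 30.2% of the 245 with a C/EBPα region alone. It was found in 8.45% of the 1361 with an HNF4α region alone, against 9.91% of all promoters. The HNF4 motif was found in 11.8% of the shared, 4.90% of the C/EBPα alone and 12.3% of the HNF4α alone promoters, against 5.69% of all. The letters of a factor were thus more frequent at the starts its regions covered, in the shared class for both motifs. Motifs of 3 other liver and blood factors were searched on both strands and could overlap these. The FOXA motif (TGTTTNC) was found in 20.5%, 14.7% and 16.5% of the shared, C/EBPα alone and HNF4α alone promoters, against 18.4% of all. The GATA motif (AGATAA) was found in 10.5%, 5.71% and 7.20%, against 9.80% of all. The HNF1 motif (GTTAATNAT) was found in 3.18%, 0.408% and 1.69%, against 0.771% of all. With the motifs spelled out in full, TTGCGCAA was in 2.27% of the shared, 4.49% of the C/EBPα alone and none of the 1361 HNF4α alone promoters, against 0.214% of all. CAAAGTCCA was in 1.82%, 0.408% and 1.91%, against 0.477% of all. A match is a description of letters and not a bound site.

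The share of peaks that the factors had in common varied between pairs of lists. With single lists in place of merged regions, 47.9% to 56.3% of C/EBPα peaks met an HNF4α peak and 14.7% to 20.2% of HNF4α peaks met a C/EBPα peak over the 4 pairings. HNF4α had more regions at E15.5, 20.4 Mb in all against 4.69 Mb for C/EBPα. At E18.5 the relation of the shares was turned: 9.11% of C/EBPα regions and 31.9% of HNF4α regions were shared. At P0.5 the shares were 18.0% and 70.3%, at P14 40.9% and 57.9%, and at P60 48.1% and 55.8%. The number of regions listed also differed between stages: C/EBPα had 65021 at E18.5, 94619 at P0.5, 34737 at P14 and 44217 at P60, and HNF4α had 18359, 21262, 23800 and 36322. The part of these numbers in the shares was not tested.

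**Figure D1:**
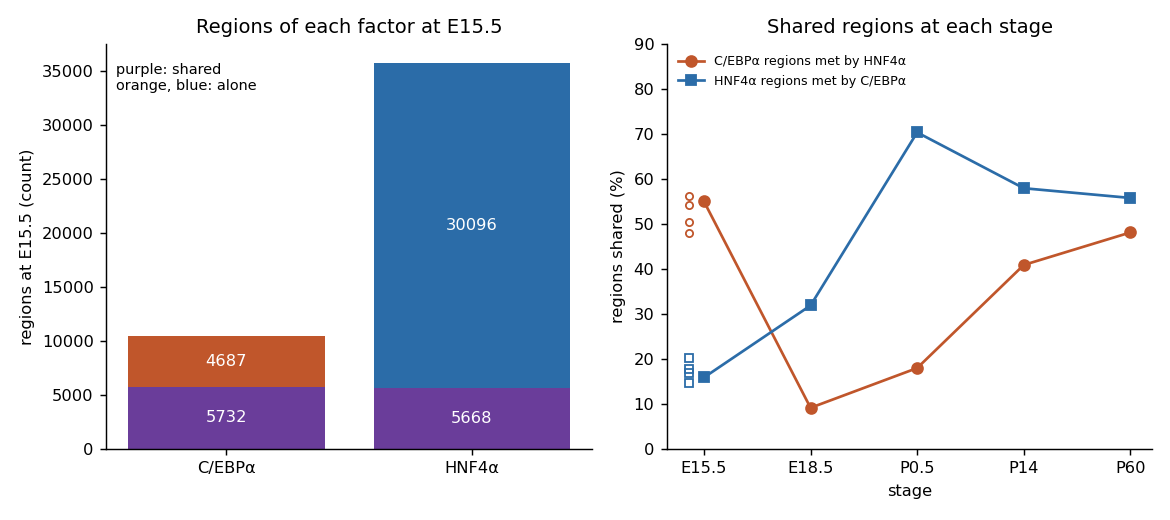
Left, regions of each factor at E15.5 (count), split into those shared with the other factor and those alone. Right, percent of the regions of each factor that were shared at each stage (filled symbols), with the 4 pairings of single lists at E15.5 as open symbols. At E15.5 55.0% of C/EBPα regions and 15.8% of HNF4α regions were shared.

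Where the factors shared a region, their centres lay close together. Over 5758 pairs of overlapping regions the centres were a median of 52.5 bp apart, 73.9% were within 100 bp and 92.2% within 250 bp. Shared regions were wider than regions bound alone, with median widths of 421 bp (C/EBPα, shared) against 385 bp (alone) and 582 bp (HNF4α, shared) against 515 bp (alone). The shared share was greater in wider regions, from 43.9% in the narrowest quartile of C/EBPα regions through 49.2% and 56.2% to 70.8% in the widest, and from 8.76% through 10.9% and 17.0% to 26.8% for HNF4α. A wider region overlaps others more easily, and the part of width in this relation was not tested. With centres at most 250 bp apart in place of any overlap, 51.0% of C/EBPα regions were shared. Very wide peaks, the widest 38675 bp, made up 20 C/EBPα and 23 HNF4α regions over 5 kb, all in the shared class. The 5 genes with the most bases of shared regions near their start were Gm10106, Gm10717, Gm10718, Gm10719 and Gm10720, each with all 10001 bases of its window covered by 1 such region. Their RNA was at or near 0, at most 43 in any library.

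**Figure D2:**
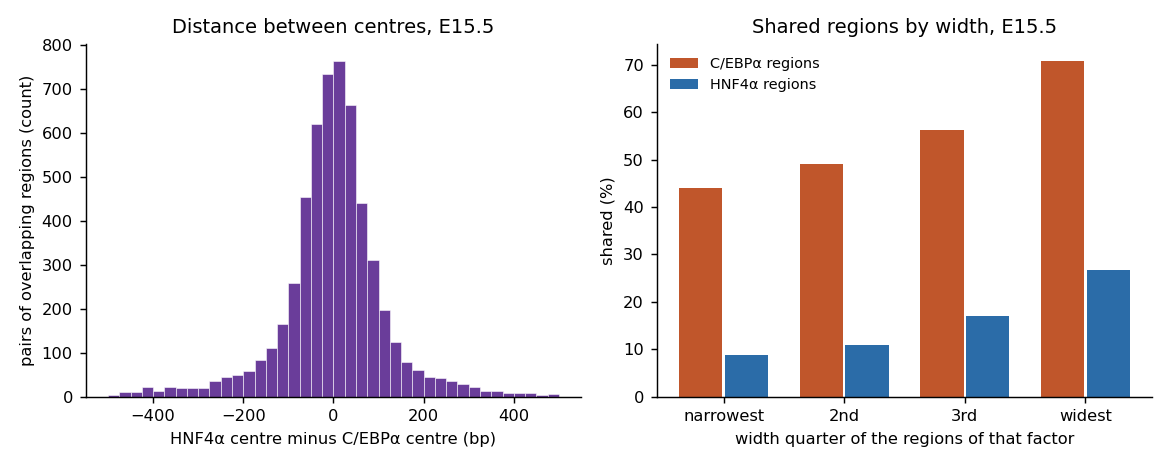
Left, distance between the centres of overlapping C/EBPα and HNF4α regions at E15.5 (bp; pairs up to 500 bp apart are drawn), with a median of 52.5 bp in either direction. Right, percent of regions shared in each width quartile of C/EBPα and HNF4α regions, highest in the widest quartile for both.

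All classes lay mostly away from start sites. Within 5 kb of a start lay 26.3% of shared C/EBPα regions, 29.3% of C/EBPα regions alone and 29.4% of HNF4α regions alone, with median distances of 15.9, 14.3 and 13.8 kb. The start itself was covered by 4.26%, 7.30% and 6.22%. C/EBPα regions over a start were shared less often (41.6%) than those farther away (55.1% to 56.2% by distance), with widths not matched between these groups. Of the peaks in a list, 27.5% ± 0.64 (SD, n = 2) lay within 5 kb of a start for C/EBPα and 29.5% ± 1.39 (SD, n = 2) for HNF4α. The difference of -2.06 percentage points had p = 0.333 in a 2-sided exact permutation test over lists, the smallest p this design allows. Along the autosomes 50.4% (chromosome 13) to 60.9% (chromosome 16) of C/EBPα regions were shared.

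Part of the regions called alone had some signal of the other factor. An HNF4α peak in 1 replicate only met 1078 of the 4687 C/EBPα regions alone (23.0%), and a C/EBPα peak in 1 replicate met 2654 of the 30096 HNF4α regions alone (8.82%). An HNF4α region lay within 10 kb of 51.5% of C/EBPα regions alone (median distance 9.24 kb), and a C/EBPα region within 10 kb of 24.2% of HNF4α regions alone (34.0 kb). Counting peaks of either replicate, 10557 of 19723 C/EBPα regions were shared.

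Binding at later stages was not used to form the classes. C/EBPα stayed at its E15.5 regions whether or not HNF4α was there. Shared regions were bound by C/EBPα again in 95.4% at E18.5, 96.5% at P0.5, 88.1% at P14 and 81.9% at P60, and C/EBPα regions alone in 98.1%, 98.2%, 80.9% and 75.7%. At P60 C/EBPα list 1 met 84.3% of shared regions and 76.5% of C/EBPα regions alone, and list 2 met 90.2% and 89.6%. The shared share was thus higher in both lists, by little in list 2, and the difference was not tested. C/EBPα was found at every later stage in 78.2% of shared regions and 71.2% of regions alone.

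HNF4α was kept more often at shared regions than at its regions alone. Shared HNF4α regions were bound by HNF4α in 37.1% at E18.5, 66.4% at P0.5, 63.1% at P14 and 75.0% at P60, and HNF4α regions alone in 19.3%, 46.9%, 43.6% and 51.7%. At P60 the single HNF4α lists gave 80.4% and 78.6% for shared regions and 58.0% and 55.8% for HNF4α regions alone, so the groups of lists did not overlap. Width moved with this result: among HNF4α regions alone, 38.2% of the narrower and 65.4% of the wider regions had HNF4α at P60, and among shared HNF4α regions 65.1% of the narrower and 84.9% of the wider. The E18.5 values rest on the 2 HNF4α lists that stand apart. Without that stage HNF4α was still found more often in the shared class at P0.5, P14 and P60.

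Regions bound by 1 factor at E15.5 took up the other later, in different proportions. HNF4α was found at 0.45% of C/EBPα regions alone at E18.5, 11.3% at P0.5, 15.0% at P14 and 28.9% at P60. C/EBPα was found at 39.1% of HNF4α regions alone at E18.5, 44.6% at P0.5, 25.2% at P14 and 25.0% at P60. The single C/EBPα lists gave 51.0% and 40.9% at E18.5 and 26.3% and 40.9% at P60, so a fall from E18.5 to P60 was not larger than the spread between lists. C/EBPα listed 65021 and 94619 regions at E18.5 and P0.5, its highest numbers, and their part in this share was not tested. By P60, 22.5% of HNF4α regions alone were bound by both factors, 29.2% by HNF4α only and 45.8% by neither, while 28.2% of C/EBPα regions alone were bound by both, 47.5% by C/EBPα only and 23.6% by neither. Of shared regions 70.6% were bound by both factors at P60 and 13.7% by neither. HNF4α came to 67.2% of C/EBPα regions alone at no later stage listed, and C/EBPα to 48.4% of HNF4α regions alone at none.

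**Figure D3:**
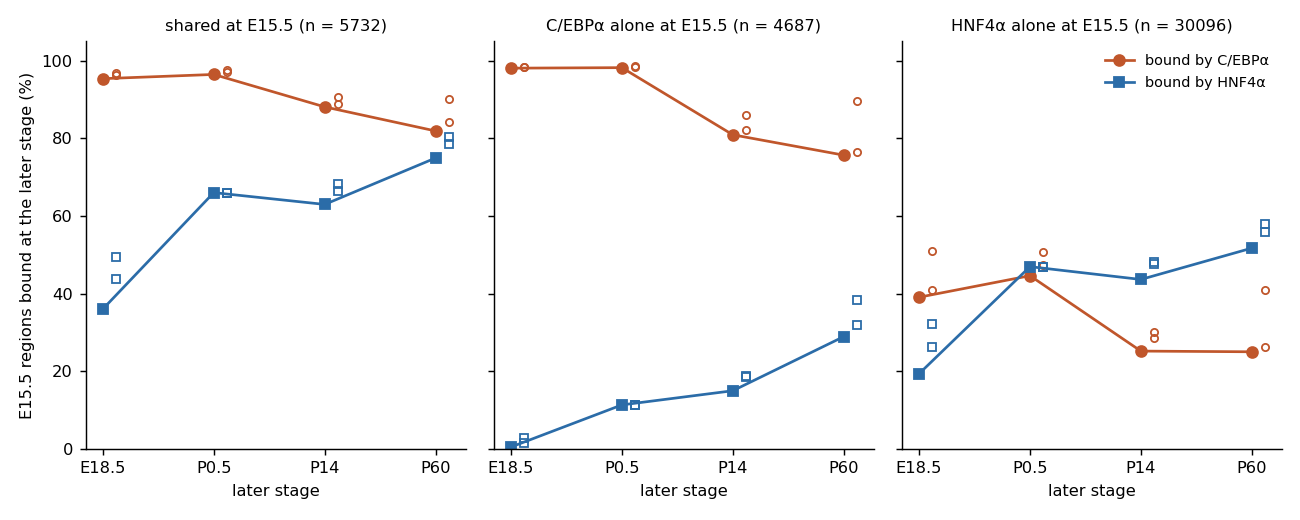
Percent of E15.5 regions bound by C/EBPα (circles) and HNF4α (squares) at 4 later stages, for shared C/EBPα regions, C/EBPα regions alone and HNF4α regions alone. Filled symbols need a peak of both replicates and open symbols show single lists. For HNF4α at P0.5 the lists hold the same peaks, so filled and open symbols there show 1 list. C/EBPα was found at 95.4% of shared regions and 98.1% of its regions alone at E18.5, and HNF4α at 28.9% of C/EBPα regions alone at P60.

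Single genes show these paths. The Alb start region was bound by both factors at every later stage, as was the shared region chr10:88994638-88995145 near Nr1h4, the bile acid receptor FXR. Afp, the fetal counterpart of albumin, had 3 shared regions within 5 kb, and the one over its start (chr5:90919448-90919930) was bound by C/EBPα at E18.5 and P0.5 only and by HNF4α at no later stage. HNF4α regions alone over the starts of Cyp7a1, the rate-limiting enzyme of bile acid synthesis (chr4:6202669-6203243), of Cyp8b1, which makes cholic acid, and of Abcb11, the bile salt export pump (chr2:69180532-69181418), had C/EBPα at all 4 later stages. The C/EBPα region alone over Ugt2b5, a glucuronosyltransferase, had HNF4α at P14 and P60, and the one over Nlrp12, an inhibitory innate immune receptor (chr7:3249564-3250039), had it at P60 only. At Trib1, a pseudokinase that promotes breakdown of C/EBPα protein, 4 C/EBPα regions alone lay within 5 kb, all bound by C/EBPα at every later stage. Cebpa itself had a C/EBPα region alone 21 bp from its start (chr7:35903982-35904291) and an HNF4α region alone 2266 bp away (chr7:35901369-35902046). Hnf4a had no region within 5 kb of the start in the table, and a shared region 33810 bp inside the gene (chr2:163366354-163366813) was bound by both factors at every later stage.

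Of 16 neutrophil genes, 2 had C/EBPα alone (Ltf and S100a8), 2 were shared (Lcn2 and Fcgr3), 1 had HNF4α alone and 11 had no region. Over all genes these classes held 2.62%, 4.84%, 18.9% and 72.1%. C/EBPα is also known for its role in granulocytes. Regions over the starts of Ltf (lactoferrin, of neutrophil granules) and S100a8 (calgranulin A, chr3:90472706-90473020) and 486 bp from Sfpi1 (the blood cell factor PU.1, chr2:90923033-90923441) had HNF4α at no stage. The Ltf region had C/EBPα at E18.5, P0.5 and P14 but not at P60, and the Sfpi1 region at E18.5 and P0.5 only. Of the 2 C/EBPα regions alone on the neutrophil list, 2, 2, 1 and 1 had C/EBPα at E18.5, P0.5, P14 and P60. The S100a8 region was thus the 1 with C/EBPα at P60. The 2 shared regions on that list had C/EBPα at all 4 later stages.

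Of 37583 genes, 1818 (4.84%) had a shared region within 5 kb of their start, 985 (2.62%) C/EBPα regions alone and 7095 (18.9%) HNF4α regions alone. Another 597 had regions of both factors that did not overlap, and 27088 had none. The gene groups below were chosen with earlier results of these data known and are described by counts. The lists with the most shared genes were those of plasma carriers and amino acid breakdown. Among 18 plasma carriers 13 were shared, 2 had both factors apart, 1 had C/EBPα alone and 2 HNF4α alone. Of 21 coagulation genes 11 were shared and 9 had HNF4α alone, and of 25 genes of the urea cycle and amino acid catabolism 13 were shared and 10 had HNF4α alone. Other lists of secreted proteins had fewer: 6 of 18 complement genes were shared (8 HNF4α alone), 7 of 20 apolipoprotein genes (9 HNF4α alone) and 5 of 12 acute phase genes (3 HNF4α alone). Groups of bile acid, drug and regulatory genes leaned to HNF4α alone: 9 of 19 bile acid genes (4 shared), 13 of 27 cytochrome P450 and xenobiotic genes (8 shared) and 17 of 28 liver transcription factors (2 shared). Cell cycle genes had HNF4α alone in 8 of 16 and no C/EBPα region. No lymphocyte gene of 9 had a region, and 13 of 20 erythroid, 11 of 16 neutrophil and 12 of 15 macrophage genes had none. Of all genes 72.1% had none, and of protein-coding genes 65.7%, so the erythroid and neutrophil lists lay near these shares. Of the 24 HNF4α regions alone near bile acid genes, 15 had C/EBPα at E18.5 and 22 had HNF4α at P60, and of the 11 near cell cycle genes 2 and 3 did. Over all HNF4α regions alone within 5 kb of a start, 38.2% had C/EBPα at E18.5 and 61.2% HNF4α at P60.

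The RNA libraries show how these genes stood in livers without each factor. The deposited values were normalized reads per gene, and differences are given as log2 fold changes of value + 1 with their standard error (SE) from limma, with Benjamini-Hochberg adjusted p under 0.05 over 17771 genes taken as a call. Both comparisons share the wild-type libraries. The targeted gene Cebpa had values of 9999, 9594 and 5511 in wild type and 322, 419 and 998 in the C/EBPα knockout, and fell by 3.98 ± 0.44 (SE; limma adjusted p = 0.000413). Hnf4a had 9098, 4948 and 6718 in wild type and 1238 and 2444 in the HNF4α knockout, and fell by 1.95 ± 0.45 (limma adjusted p = 0.033, from 0.0166 to 0.44 over the alternatives). That call was lost without HNF4α knockout replicate 1 and in 5 other settings. In that library 15 skeletal muscle genes, from Acta1 to Ttn, summed to 711942, against 312 to 2222 in the 7 others. The main HNF4α knockout counts of lower genes by class and gene group are therefore given with and without it. The other HNF4α knockout counts rest on both libraries, among them those by RNA level and those lower in both knockouts. The part of this muscle RNA in the results was not tested. Erythroid genes summed to 5258554 and 3293075 in the HNF4α knockout, above the 867574 to 3272504 of wild type and the 1025937 to 1957088 of the C/EBPα knockout. Genes of stellate cells and fibroblasts summed to 105815 and 45937 there against 15875 to 23952 in wild type. Genes of bile duct cells summed to 9282 to 11535 in the C/EBPα knockout against 1559 to 3043 in wild type. In bulk liver, fewer cells of a type and less RNA per cell cannot be told apart.

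Genes near a shared E15.5 region fell most often in both knockouts. In the C/EBPα knockout 169 of 1282 shared genes tested (13.2%) were lower, against 2.86% of all genes tested. The counts were 19 of 487 for both factors apart (3.90%), 17 of 714 for C/EBPα alone (2.38%), 180 of 5031 for HNF4α alone (3.58%) and 124 of 10257 with no region (1.21%). Genes with C/EBPα alone were thus lower no more often than all genes. Only 5 shared genes were higher, 4 with C/EBPα alone and 69 with HNF4α alone, against 0.883% of all genes tested (157). With library totals set equal, the median change of all genes moved by 0.507 on the log2 scale, 324 genes were lower and 474 higher in place of 509 and 157, and calls that were lower made up 40.6% in place of 76.4%. The shared class then had 8.78% lower, still the highest of the classes. The median change was -0.349 for shared genes, -0.046 for C/EBPα alone, 0.009 for HNF4α alone and 0.084 for none, beside 0.026 for all genes tested. The count of shared genes lower was 89 without wild-type replicate 1 and 112 without wild-type replicate 2. That of HNF4α alone was 88, 111 and, without C/EBPα knockout replicate 1, 115, that of C/EBPα alone was 11 without wild-type replicate 1, and that of genes with no region was 57, 70 and 78.

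In the HNF4α knockout 150 of 1282 shared genes (11.7%) were lower, against 3.17% of all genes tested. The counts were 20 of 487 for both factors apart, 274 of 5031 for HNF4α alone (5.45%), 16 of 714 for C/EBPα alone (2.24%) and 103 of 10257 with no region (1.00%). Higher were 6 shared genes, 8 with C/EBPα alone, 65 with HNF4α alone and 183 with no region, against 1.54% of all (273). Without HNF4α knockout replicate 1, 63 shared (4.95%), 3 C/EBPα alone (0.424%), 107 HNF4α alone (2.15%) and 35 genes with no region (0.349%) were lower, of 213 in all, and 25 genes in all were higher. The order of the classes was the same. Without the other library, replicate 2, the lower counts were 90, 7, 146 and 54, without wild-type replicate 1 they were 87, 7, 143 and 42, and without wild-type replicate 3 those of C/EBPα alone and no region were 6 and 54. Without C/EBPα knockout replicate 1 that of C/EBPα alone was 10, and without C/EBPα knockout replicate 3 that of no region was 161. The median change was -0.378 for shared genes, -0.112 for HNF4α alone, -0.025 for C/EBPα alone and 0.133 for none, beside 0.016 for all genes tested.

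The RNA level moves with class, since shared genes had a median wild-type value of 650.5 against 402.8 for C/EBPα alone, 387.0 for HNF4α alone and 152.7 for none, and more highly expressed genes are called more easily. Within quartiles of mean level, 4.21%, 10.2%, 13.7% and 17.4% of shared genes were lower in the C/EBPα knockout from the lowest to the highest quartile, against 0.854%, 2.10%, 2.95% and 5.56% of all genes. In the HNF4α knockout these were 3.74%, 13.2%, 15.0% and 12.4%, against 0.922%, 2.82%, 3.80% and 5.13%. The shared class was thus above all genes at each level in both comparisons. Lower in both knockouts, which share their controls, were 91 shared genes (7.10% of those tested), 7 with C/EBPα alone (0.980%), 110 with HNF4α alone (2.19%) and 43 with none (0.419%), beside 261 of all genes tested (1.47%).

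**Figure D4:**
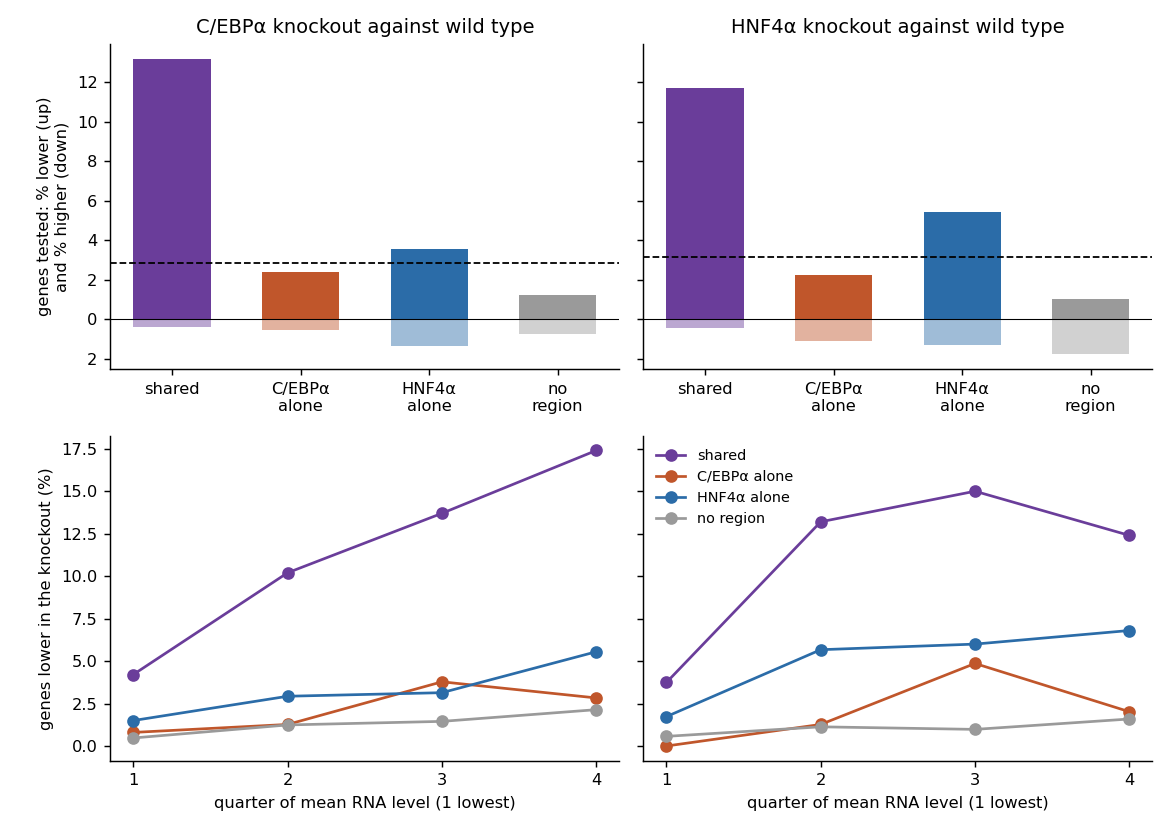
Top, percent of the genes tested in each class that were lower (upward) or higher (downward) in each knockout; the dashed line is the percent lower over all genes tested (2.86% and 3.17%). Bottom, percent lower by quartile of mean RNA level. Shared genes were highest in every quartile of both comparisons.

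The direct comparison of the knockouts showed where the classes responded unequally. Of genes with HNF4α alone, 63 were lower in the C/EBPα knockout than in the HNF4α knockout and 154 were higher, against 1.87% lower (332) and 1.61% higher (287) over all genes tested. These are 1.25% and 3.06% of the class. With C/EBPα alone 20 (2.80%) were lower in the C/EBPα knockout and 5 (0.700%) higher, and of shared genes 53 (4.13%) and 37 (2.89%). These counts depend on the scaling. With equal library totals, 29 genes with HNF4α alone were lower and 296 higher, 6 and 13 with C/EBPα alone, 29 and 79 of the shared genes, and 169 and 631 of all genes, so the direction turned for C/EBPα alone and shared genes. They also rest on few libraries. Without HNF4α knockout replicate 1 they were 5 lower and 31 higher for HNF4α alone, 1 and 0 for C/EBPα alone and 11 and 6 for shared genes. For HNF4α alone the higher genes outnumbered the lower in every leave-one-out fit, but without C/EBPα knockout replicate 3 only by 149 to 136, and without C/EBPα knockout replicate 1 the counts were 74 and 21. For C/EBPα alone they were 6 and 3 (lower and higher) without wild-type replicate 1, 12 and 4 without wild-type replicate 2 or 3, 8 and 0 without C/EBPα knockout replicate 1 and 8 and 1 without HNF4α knockout replicate 2. For HNF4α alone they were 33 and 108 without wild-type replicate 1 and 51 and 80 without HNF4α knockout replicate 2, and for shared genes 33 and 25, and 27 and 15, in the same fits. Shared genes had 27 and 15 without C/EBPα knockout replicate 1 and 93 and 35 without replicate 3.

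The largest falls among shared genes without C/EBPα included Cps1, Saa4, Hfe2 and Cyp2a4. Cps1, which makes carbamoyl phosphate for the urea cycle, had values of 42271, 35402 and 52397 in wild type, 185, 87 and 625 in the C/EBPα knockout and 23796 and 22966 in the HNF4α knockout. It fell by 7.62 ± 0.59 without C/EBPα (limma adjusted p = 4.54e-05) and changed by -0.87 ± 0.66 without HNF4α (adjusted p = 0.474). The groups of libraries did not overlap. Saa4, a serum amyloid carried on lipoproteins, had 862, 803 and 798 in wild type, 1, 5 and 6 without C/EBPα and 155 and 186 without HNF4α, and fell by 7.55 ± 0.53 without C/EBPα (limma adjusted p = 2.75e-05). Hfe2, hemojuvelin, a co-receptor that raises hepcidin and is also expressed in muscle, had 1933, 1719 and 1694 in wild type and 5, 2 and 36 without C/EBPα, and fell by 7.67 ± 1.02 (limma adjusted p = 0.00152). Its values without HNF4α were 2301 in the library with muscle RNA and 130 in the other. Cyp2a4, a steroid hydroxylase, fell by 7.48 ± 0.70 (limma adjusted p = 0.000138), from 315, 192 and 369 to 3, 0 and 0.

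Other shared genes fell in both knockouts, or passed the test only without HNF4α. Nr1h4 had 1343, 1285 and 895 in wild type, 133, 100 and 140 without C/EBPα and 93 and 166 without HNF4α, changes of -3.22 ± 0.36 (limma adjusted p = 0.000476) and -3.21 ± 0.40 (adjusted p = 0.00124). Cyp3a41a, a cytochrome P450, had 875, 924 and 839 in wild type, 9, 3 and 6 without C/EBPα and 13 and 12 without HNF4α. Its near-identical copy Cyp3a41b had 514, 354 and 538 against 3, 1 and 4 and 9 and 6, and reads of these copies may be split between them. Inhbe, an inhibin beta subunit secreted by liver, had 1822, 739 and 246 in wild type, 25, 11 and 41 without C/EBPα and 1 and 6 without HNF4α (change of -7.53 ± 0.90, limma adjusted p = 0.000912). Apob, the core protein of lipoproteins, had 47448, 22214 and 105213 in wild type, 28066, 7325 and 13792 without C/EBPα and 1347 and 1768 without HNF4α. It fell by 4.96 ± 0.70 without HNF4α (limma adjusted p = 0.00242), and its change of -1.76 ± 0.63 without C/EBPα did not pass the test (adjusted p = 0.194). The Apob difference between the knockouts was 3.20 ± 0.70 (limma adjusted p = 0.0337), and its call was lost in 7 of 14 alternatives. Alb, with a shared region over its start, had 2758855, 1491169 and 3098691 in wild type, 670004, 127285 and 559934 without C/EBPα and 430946 and 863323 without HNF4α, and passed in neither (limma adjusted p = 0.485 and 0.543). The groups of Alb did not overlap, with changes of -2.69 ± 1.51 and -1.94 ± 1.69.

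Without HNF4α knockout replicate 1 the changes were -2.79 for Nr1h4, -6.08 for Cyp3a41a, -6.63 for Inhbe and -4.76 for Apob, all still called.

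A few shared genes went the other way. Serpina6, the corticosteroid carrier of plasma, had 173, 166 and 412 in wild type, 54960, 32605 and 21688 without C/EBPα and 4231 and 7276 without HNF4α, rises of 7.21 ± 0.47 (limma adjusted p = 2.48e-05) and 4.60 ± 0.52 (adjusted p = 0.000739). A C/EBPα region alone over its start (chr12:104895356-104895734) was not found at E18.5 or P0.5 and was bound by both factors at P14 and P60. Hamp, hepcidin, the hormone of iron control, had 8, 72 and 46 in wild type, 5, 8 and 45 without C/EBPα and 1924 and 2780 without HNF4α, a rise of 6.21 ± 0.99 (limma adjusted p = 0.00454). Cldn4, a tight junction protein of epithelia, rose by 5.35 ± 1.11 without C/EBPα (limma adjusted p = 0.0213), from 14, 0 and 16 to 100, 160 and 1064, beside the higher bile duct genes given above. In 3 of 14 alternatives its call was lost. Without HNF4α knockout replicate 1 the rises in that knockout were 4.99 for Serpina6 and 6.47 for Hamp, both still called.

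Of the genes with C/EBPα alone, 7 were lower in both knockouts (0.980% of those tested, beside 1.47% of all genes), 10 passed only without C/EBPα (1.4%, beside 1.4%) and 9 only without HNF4α (1.26%, beside 1.70%). Ugt2b5 had 1240, 1215 and 1109 in wild type, 68, 46 and 26 without C/EBPα and 155 and 195 without HNF4α, changes of -4.74 ± 0.40 (limma adjusted p = 7.49e-05) and -2.76 ± 0.45 (adjusted p = 0.00484). Nlrp12 had 959, 565 and 620 against 28, 27 and 22 and 108 and 92, changes of -4.71 ± 0.39 and -2.79 ± 0.43. Prlr, the prolactin receptor, and Aox3, an aldehyde oxidase, fell, with changes of -5.01 ± 0.54 and -5.94 ± 0.63 without C/EBPα and -3.17 ± 0.60 and -4.16 ± 0.70 without HNF4α. The HNF4α calls of Ugt2b5, Prlr and Aox3 were lost without the library with muscle RNA, at changes of -2.60, -3.37 and -3.58, while that of Nlrp12 remained at -2.90, and that of Prlr also without HNF4α knockout replicate 2 or wild-type replicate 3. Pbld2, a phenazine biosynthesis-like protein, had 587, 471 and 405 in wild type and 50 and 33 without HNF4α, a change of -3.54 ± 0.46 (limma adjusted p = 0.00134; -3.83 without replicate 1), and 237, 131 and 295 without C/EBPα (adjusted p = 0.172). Serpina7, the thyroxine carrier of plasma, had 563, 557 and 898 in wild type, 42, 22 and 130 without C/EBPα and 2761 and 4316 without HNF4α. It fell by 3.70 ± 0.56 without C/EBPα (limma adjusted p = 0.00319), its change of 2.40 ± 0.62 without HNF4α missed the threshold (adjusted p = 0.0534), and the knockouts differed by -6.09 ± 0.62 (adjusted p = 0.00108), or by -6.41 (adjusted p = 0.0146) without HNF4α knockout replicate 1. Ltf, by contrast, had 9291, 7384 and 4059 in wild type, 4080, 6724 and 3855 without C/EBPα and 10106 and 6788 without HNF4α, with overlapping groups (limma adjusted p = 0.71 and 0.706). S100a8 and Sfpi1 also passed in neither comparison, with adjusted p of 0.974 and 0.26 for S100a8 and 0.771 and 0.0857 for Sfpi1. Ccnd2, cyclin D2, was among the 4 higher without C/EBPα, with 559, 522 and 757 in wild type and 1475, 2905 and 1305 there (limma adjusted p = 0.0386, from 0.00934 to 0.187 over the alternatives). The Ccnd2 call was lost in 10 of 14 alternatives.

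Of the 9 bile acid genes with HNF4α alone at E15.5, 5 were lower without C/EBPα and 7 without HNF4α. Over all genes tested these shares were 2.86% and 3.17%. The 4 bile acid genes named here were lower in both. Cyp7a1 had 2318, 1740 and 3330 in wild type, 233, 114 and 320 without C/EBPα and 108 and 89 without HNF4α, changes of -3.54 ± 0.42 (limma adjusted p = 0.000715) and -4.59 ± 0.47 (adjusted p = 0.000489). Cyp8b1 had 4224, 4197 and 4367 against 45, 38 and 242 and 287 and 164, changes of -5.81 ± 0.60 and -4.29 ± 0.67. Slc10a1, the bile acid uptake carrier NTCP, had 4981, 5286 and 7541 against 48, 44 and 48 and 673 and 323, with changes of -6.94 ± 0.35 and -3.64 ± 0.39. The difference between the knockouts was -3.29 ± 0.39 (limma adjusted p = 0.0022), and -2.77 without HNF4α knockout replicate 1 (limma adjusted p = 0.0405). Abcb11 fell too, with changes of -3.13 ± 0.33 and -3.30 ± 0.37. In each of these 4 genes the knockout libraries lay below all wild-type libraries, and the HNF4α calls remained without replicate 1, at -4.72 for Cyp7a1, -4.69 for Cyp8b1, -4.17 for Slc10a1 and -3.61 for Abcb11. Every E15.5 HNF4α region alone within 5 kb of their starts was bound by C/EBPα at all 4 later stages. Over the whole bile acid list, 15, 16, 12 and 15 of 24 HNF4α regions alone had C/EBPα at E18.5, P0.5, P14 and P60. For all HNF4α regions alone within 5 kb of a start these shares were 38.2%, 47.6%, 27.7% and 26.5%. The part of later C/EBPα binding in these falls was not tested.

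**Figure D5:**
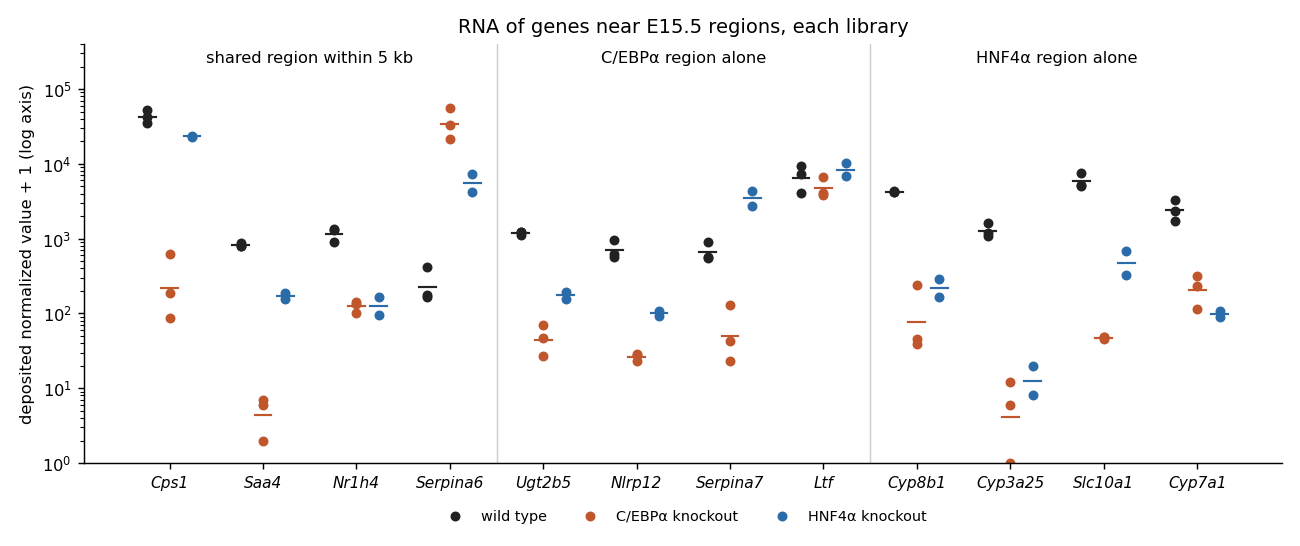
Deposited normalized RNA value + 1 (log axis) in each of 3 wild-type, 3 C/EBPα knockout and 2 HNF4α knockout libraries for 12 genes by class of E15.5 region; short lines are means of log2 values. Cps1 lies far lower without C/EBPα than without HNF4α, Serpina7 is low without C/EBPα and high without HNF4α, and the knockout libraries of Ltf overlap wild type.

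Other genes with HNF4α alone that changed most are given by library. Cyp3a25 had 1616, 1188 and 1093 in wild type, 5, 0 and 11 without C/EBPα and 7 and 19 without HNF4α. Serpina3k, a plasma protease inhibitor, had 53144, 44680 and 4142 in wild type, with the last far below the others, and 94, 31 and 219 and 104 and 60 in the knockouts. Cfhr2, a complement factor H related protein, had 2023, 1296 and 2539 against 29, 5 and 10 and 67 and 84. Cyp4a10, a fatty acid hydroxylase, had 1156, 1027 and 2279 in wild type, 66, 34 and 280 without C/EBPα and 12 and 2 without HNF4α (difference 3.80 ± 0.86, limma adjusted p = 0.0376). The call of this difference was lost in 9 of 14 alternatives, among them those without HNF4α knockout replicate 1 (4.86) and replicate 2 (2.74), and the limma adjusted p ran from 0.0125 to 0.219 over all 14. Bpifb1, a secreted lipid-binding protein of airway and gut lining, had 1, 0 and 1 in wild type, 523, 198 and 919 without C/EBPα and 7 and 2 without HNF4α, a rise of 8.17 ± 0.77 without C/EBPα (limma adjusted p = 0.000143), and its HNF4α region had C/EBPα at no later stage. Lgals2, a galectin of the gut, rose there from 6, 0 and 1 to 258, 617 and 99. Jsrp1, a gene of the muscle sarcoplasmic reticulum and the largest rise of the class without HNF4α, had 655 in the library with muscle RNA and 86 in the other, and its call was lost without the first.

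By gene group, falls lay in the shared and HNF4α alone classes and, in some lists, also outside them. Of 7 apolipoprotein genes lower without C/EBPα, 2 were shared and 2 had HNF4α alone. Of 11 such glucose and glycogen genes, 2 were shared and 5 had HNF4α alone. The others of these 2 lists that were lower had both factors apart or no region. Over all genes tested, 2.86% were lower and 0.883% higher without C/EBPα, and 3.17% were lower without HNF4α. In the C/EBPα knockout 18 of 25 genes of the urea cycle and amino acid catabolism were lower, 11 of them shared and 6 with HNF4α alone, with a list median of -2.74 beside 0.026 for all genes. Of 21 coagulation genes 11 were lower (9 shared, median -2.34), of 18 bile acid genes tested 13 (3 shared, 5 HNF4α alone, median -3.47), of 25 P450 and xenobiotic genes tested 15 (median -3.29) and of 17 glucose and glycogen genes 11 (median -1.84). Of 18 plasma carriers, 13 of them shared, 5 were lower and 1 was higher, at a median of -2.53. In the HNF4α knockout 14 bile acid genes (median -3.47), 17 P450 and xenobiotic genes (median -3.17), 12 amino acid genes, 11 of 18 complement genes and 7 coagulation genes were lower. Without replicate 1 these were 9, 12, 4, 5 and 3. Fga, the fibrinogen alpha chain, fell by 3.53 ± 0.72 without C/EBPα (limma adjusted p = 0.0191), from 256854, 163500 and 234654 to 14509, 9164 and 48182, and lost its call in 5 of 14 alternatives. Of 28 liver transcription factors 4 were lower without C/EBPα and 7 without HNF4α (2 without replicate 1). No gene of the fetal liver or cell cycle lists was lower in either knockout, and 2 and 3 of them were higher without C/EBPα. The bile duct list had 5 of 9 genes tested higher without C/EBPα, beside its summed level above.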

How the data were processed

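The series holds 48 samples, of which 20 peak lists and 8 RNA libraries were used, and 20 further ChIP samples were not used here. The deposited peak lists give positions in build mm9 with a score of 0 throughout, and MACS 1.4 is named in the submitters' processing notes. The deposited RNA values are whole-number scores per gene, reads normalized by the authors and rounded (DESeq is named in the submitters' processing notes), with totals of 13.4 to 26.0 M per library. Raw depth is not given in the sources used here.

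Peaks were merged and intersected with pandas 2.3.3 in Python 3.11.15, with any overlap of at least 1 bp, and the shared count was checked with bedtools 2.31.1. RNA values were taken as log2(value + 1) for genes with at least 10 in 2 libraries and tested 2-sided with limma 3.58.1 in R 4.3.3 with a variance trend, all 8 libraries in 1 fit, Benjamini-Hochberg adjusted over all genes tested. These rounded normalized values are not counts, so no count test was used. Fold changes on this scale understate the change of low genes. The fit was tested on simulated data. The limma p-values set each group difference against a variance pooled over all 8 libraries and drawn toward a trend across genes. Livers per sample and diet per sample are not given in the labels.

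Named genes were the targeted genes, for each class the 5 genes with the most bases of its regions near the start and the 4 largest falls and 2 largest rises called in each knockout, and up to 4 members of each list per class by wild-type level. Ltf, S100a8, Sfpi1, Trib1 and others of the named set were singled out after their values were seen. The members and the lists were chosen with earlier results of these data known. Promoters were to be placed by their window inside a region. As the promoter table is of another build, the gene start in the deposited table was used. Alternatives covered the overlap rule, replicates, width, window, value filters, scaling, variance trend, block and motif letters.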

Additional observations from a re-analysis of the deposited data

How the results depend on the processing

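None of 59 calls of named genes against wild type changed direction, and 43 held in all 14 alternatives. With equal library totals the balance of calls did turn: in the C/EBPα knockout to 324 lower and 474 higher, and between the knockouts for C/EBPα alone (6 lower, 13 higher) and shared genes (29 and 79). With peaks of either replicate there were 19723 C/EBPα regions, 10557 shared C/EBPα, 10400 shared HNF4α and 9166 C/EBPα regions alone, 19.39% of HNF4α regions were shared, and 3349 genes were shared and 1186 had both factors apart. With only peaks wider than their list's median there were 4089 C/EBPα and 15191 HNF4α regions, 1937 and 1893 shared, 2152 and 13298 alone, 47.37% and 12.46% shared, and 656 genes shared, 207 with both apart and 4363 with HNF4α alone. With centres within 250 bp 50.96% of C/EBPα regions were shared. Leaving out 1 E15.5 list of either factor gave 10419 (the merged count, where an HNF4α list was left out) to 16900 C/EBPα regions, 3844 to 9060 C/EBPα regions alone, 46.39% to 63.11% and 12.98% to 21.34% shared, 622 to 986 genes with both apart and 622 to 1812 with C/EBPα alone. A window of 1 kb gave 726 shared genes, 124 with both apart and 4044 with HNF4α alone, 10 kb gave 2870 and 1138 for the first 2 classes, and 50 kb gave 9373, 4252 and 10741.

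For later binding, the settings with either replicate and with wider peaks changed the later lists as well as those of E15.5. Peaks of either replicate gave C/EBPα at 87.55% of shared (P60), 89.68% of C/EBPα alone (E18.5) and 34.65% of HNF4α alone regions (P60). They gave HNF4α at 46.71% (E18.5) and 77.48% (P60) of shared, 1.91% of C/EBPα alone (E18.5) and 26.45% of HNF4α alone regions (E18.5). Wider peaks gave C/EBPα at 88.64% and 73.88% of shared (E18.5, P60) and 87.96% and 59.53% of C/EBPα alone, and HNF4α at 27.98% and 64.64% of shared, 1.49% and 23.42% of C/EBPα alone and 48.35% of HNF4α alone (P60). Later peaks of either replicate, chosen after seeing the data, gave C/EBPα at 97.82% and 92.86% of shared, 90.78% of C/EBPα alone (P60) and 53.41% and 43.12% of HNF4α alone, and HNF4α at 57.69% and 84.3% of shared, 3.71% and 42.63% of C/EBPα alone and 39.11% and 62.56% of HNF4α alone. Centres within 250 bp gave HNF4α at 2.66% and 33.06% of C/EBPα alone. Leaving out 1 E15.5 list of either factor gave C/EBPα at 92.95% to 95.67% and 78.06% to 81.75% of shared and 85.63% to 98.61% and 62.3% to 75.86% of C/EBPα alone, and HNF4α at 31.56% to 35.02% and 71.92% to 73.75% of shared, 23.89% to 28.77% of C/EBPα alone (P60), and 13.74% to 19.2% and 44.68% to 51.63% of HNF4α alone.

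For genes lower in the C/EBPα knockout, equal library totals gave 112 shared, 115 HNF4α alone and 73 with no region. A window of 1 kb gave 96 shared and 233 with no region, and 50 kb gave 344 shared, 2 C/EBPα alone, 86 HNF4α alone and 17 with none. Leaving out a library gave 89 to 214 shared, 11 to 22, 88 to 246 and 57 to 154 in these classes, 255 to 664 in all and 56 to 140 higher. In the HNF4α knockout a window of 1 kb gave 80 shared and 219 with none, and 50 kb gave 355, 4, 125 and 15. C/EBPα alone had 10 with no filter and 10 with no variance trend. Leaving out a library gave 63 to 211, 3 to 20, 107 to 375 and 35 to 161, 213 to 794 in all and 25 to 578 higher, with a lone HNF4α knockout library assumed to vary like the other groups. Lower calls made up 89.5% of calls without HNF4α knockout replicate 1 against 67.3%. Same-numbered RNA libraries did not deviate together (correlations from -0.231 to 0.19), so the numbers were not taken as pairs; with the replicate as a block, 6 C/EBPα alone, 177 HNF4α alone, 47 with none and 345 in all were lower and 141 higher in the HNF4α knockout. The stricter motif letters gave 2.27%, 4.49% and 0.0% for C/EBP and 1.82%, 0.408% and 1.91% for HNF4 in shared, C/EBPα alone and HNF4α alone promoters. Peak height was not listed and RNA depth is unknown, which limits what a missing peak or a low value shows.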
